A study of Danio rerio with 4 samples.

Results

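The genes nanos3, ddx4, dazl, tdrd7a, ca15b and gra are transcribed or stored in the germ line of zebrafish and are widely used to recognise its germ cells. They were chosen by name from the deposited table of gene expression, as its germ plasm and core germ cell genes. Earlier results of these data were known at that choice. Finding all 6 of 6 among the 2477 genes of the table is therefore no result. Primordial germ cells, from which eggs and sperm later derive, had been sorted by flow cytometry on an EGFP signal restricted to the germ line. The embryos were AB zebrafish, taken 13 hours after fertilization. One group had received a morpholino against dead end (dead end MO, 2 libraries) and the other a control morpholino (control MO, 2 libraries). A morpholino is a synthetic antisense oligonucleotide. Both groups were sorted on the same kind of signal, and the labels name neither the EGFP construct nor the sequence or target site of either morpholino. The comparison asks what becomes of germ cell transcripts when the RNA-binding protein Dead end is reduced.

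Germ plasm is a granular cytoplasm laid down in the egg, rich in RNA and protein, and the cells that inherit it become germ cells. In zebrafish many germ plasm RNAs are supplied by the mother, are cleared from somatic cells in the early embryo and persist in the germ cells. Dead end is known from earlier work in zebrafish to bind uridine-rich stretches of the nanos3 and tdrd7a messages and to keep the microRNA miR-430 from acting on them. Nanos and Dazl proteins in turn control the translation and stability of other messages, Nanos with Pumilio proteins and the CCR4-NOT deadenylase, and Dazl with poly(A)-binding proteins.

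All 6 genes were lower in dead end MO cells, and they kept between 12.7% and 46.2% of their control level in FPKM (sequenced fragments scaled to transcript length and library size). The carbonic anhydrase gene ca15b kept the smallest share and the germ plasm gene gra the largest. Summed over the 6 genes, the level was 2269 FPKM in dead end MO cells and 10252 FPKM in control MO cells, so that 22.1% was kept. Each FPKM is the authors' value for a whole group, which combines its 2 libraries, so no spread between libraries can be given and the depth is unknown. Every gene in the authors' deposited table has q under 0.05, and of the 2477 genes 868 (35.0%) are lower and 1609 (65.0%) higher in dead end MO cells. That the 6 genes passed the authors' test is therefore a property of the table they were taken from. They were chosen with earlier results known, so their shared direction is no separate evidence either. In sorted bulk RNA, fewer germ cells in the sorted material and less of a transcript per germ cell cannot be told apart.

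The genes nanos3 and dazl encode RNA-binding regulators of translation. Gene positions are given as in the table and were taken as GRCz10, because on chromosome 4 they reach 74754136, beyond what Zv9 holds there. The product of nanos3 (ENSDARG00000068255, chromosome 1, 54569718 to 54570845) is a zinc finger protein that represses translation and is needed for germ cells to survive. The nanos3 level was 906 FPKM in dead end MO cells and 3543 FPKM in control MO cells, which left 25.6% of the control level. The fall was 3.91-fold (q = 0.00107 in the authors' deposited table). This is the smallest q in that table, and 774 of its 2477 genes share it, ca15b among them. The product of dazl (ENSDARG00000036214, chromosome 19, 20804780 to 20819548) carries an RNA recognition motif and promotes translation in germ cells. The dazl transcript was at 58.9 FPKM in dead end MO cells and at 148 FPKM in control MO cells, the lowest level of the 6 in both groups. It kept 39.9% of the control level, and its q of 0.0231 in the authors' deposited table was the largest of the 6.

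The genes tdrd7a and ddx4 encode proteins of the nuage, the perinuclear granules into which germ plasm is organised. The Tudor domain protein of tdrd7a (ENSDARG00000032808, chromosome 1, 11508899 to 11541317) helps to build these granules. Its transcript was at 310.5 FPKM in dead end MO cells and at 941 FPKM in control MO cells, so 33.0% was kept (q = 0.00259 in the authors' deposited table). The DEAD-box helicase gene ddx4 (ENSDARG00000014373, chromosome 10, 6925422 to 6946874), also known as vasa, was at 318 FPKM in dead end MO cells and at 904 FPKM in control MO cells. It kept 35.2% of the control level (q = 0.00437 in the authors' deposited table). These genes lay close together in both groups: ddx4 was 1.03 times the level of tdrd7a in dead end MO cells, and tdrd7a was 1.04 times the level of ddx4 in control MO cells.

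The remaining pair of genes is known mainly from germ cell expression. The gene ca15b (ENSDARG00000040510, chromosome 12, 4258264 to 4264718) encodes a carbonic anhydrase, an enzyme that interconverts carbon dioxide and bicarbonate. It was listed at 568 FPKM in dead end MO cells and at 4484 FPKM in control MO cells, and it kept 12.7% of the control level. This 7.90-fold fall (q = 0.00107 in the authors' deposited table) was the largest of the 6 as a ratio and also as a difference, at 3916 FPKM. The gene gra (ENSDARG00000078754, chromosome 16, 16314416 to 16318203), named granulito, encodes an RNA of the zebrafish germ plasm. Its level was 108 FPKM in dead end MO cells and 233 FPKM in control MO cells, and it kept 46.2% (2.17-fold lower, q = 0.00765 in the authors' deposited table). No other gene in the table has a locus that overlaps that of any of the 6.

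**Figure D1:**
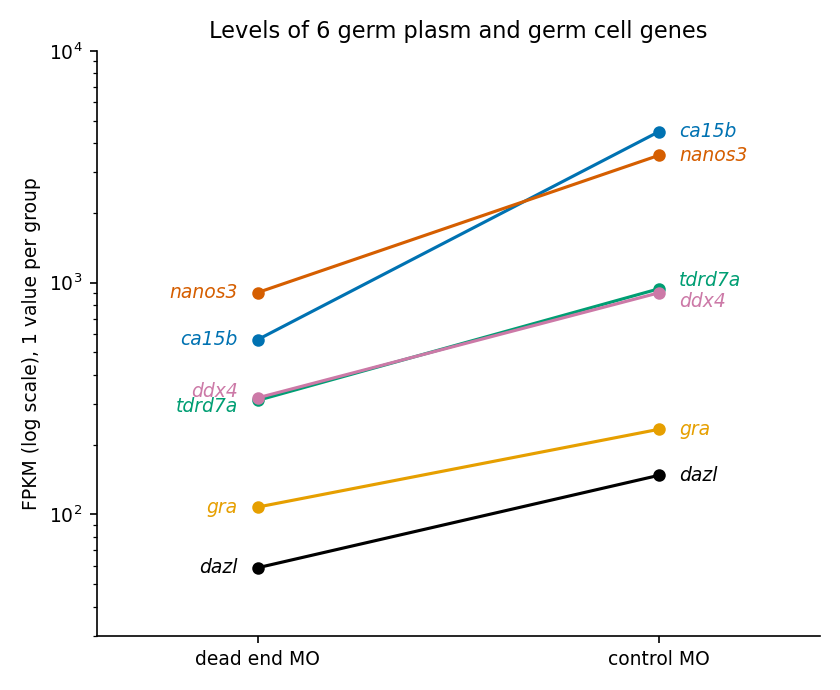
The FPKM of the 6 genes (log scale, 1 value per group, no error available) is drawn for dead end MO cells on the left and control MO cells on the right, with a line for each gene. All 6 lines are lower on the left, and those of ca15b and nanos3 cross, since ca15b is lower than nanos3 in dead end MO cells (568 and 906 FPKM) and higher in control MO cells (4484 and 3543 FPKM).

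The order of the levels differed between the groups. In dead end MO cells it was nanos3, ca15b, ddx4, tdrd7a, gra and dazl, and in control MO cells it was ca15b, nanos3, tdrd7a, ddx4, gra and dazl. With 1 value per group, neither change of order was tested. The levels spanned 15.4-fold in dead end MO cells and 30.4-fold in control MO cells. The sum of the 6 genes was made up of ca15b and nanos3 to 64.9% in dead end MO cells and to 78.3% in control MO cells.

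Some measure of error can be had from the authors' test statistic, if it is taken as the log ratio divided by its standard error. The standard error of the log2 ratio would then be 0.82 for ca15b, 0.56 for nanos3, 0.61 for tdrd7a, 0.59 for ddx4, 0.62 for dazl and 0.48 for gra. The matching 95% interval of the share kept would run from 4.15% to 38.6% for ca15b and from 24.1% to 88.6% for gra, the genes at the ends of the order. The intervals of all 15 pairs of the 6 genes overlap, which does not show that their shares are equal. The upper end of each of the 6 intervals lies below the control level, and the highest is 92.8%, for dazl. The intervals come from the statistic of the authors' test, which all 6 genes passed to be in the table. The upper ends are therefore no separate evidence of a fall. For all 6 genes the p-values in the authors' deposited table are smaller than a normal tail of the same statistic would give. The same holds for 2021 of the 2245 genes with a statistic. For dazl the deposited p is 0.00265 where the normal tail gives 0.0329. The intervals therefore do not match the authors' p-values, and their 95% level holds only under the reading of the statistic assumed here. The genes nanos3 and tdrd7a, described as targets of Dead end, had shares of 25.6% and 33.0%. Of the other 4 genes, ca15b kept less (12.7%), while ddx4 (35.2%), dazl (39.9%) and gra (46.2%) kept more. A difference between the described targets and the others was not tested.

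**Figure D2:**
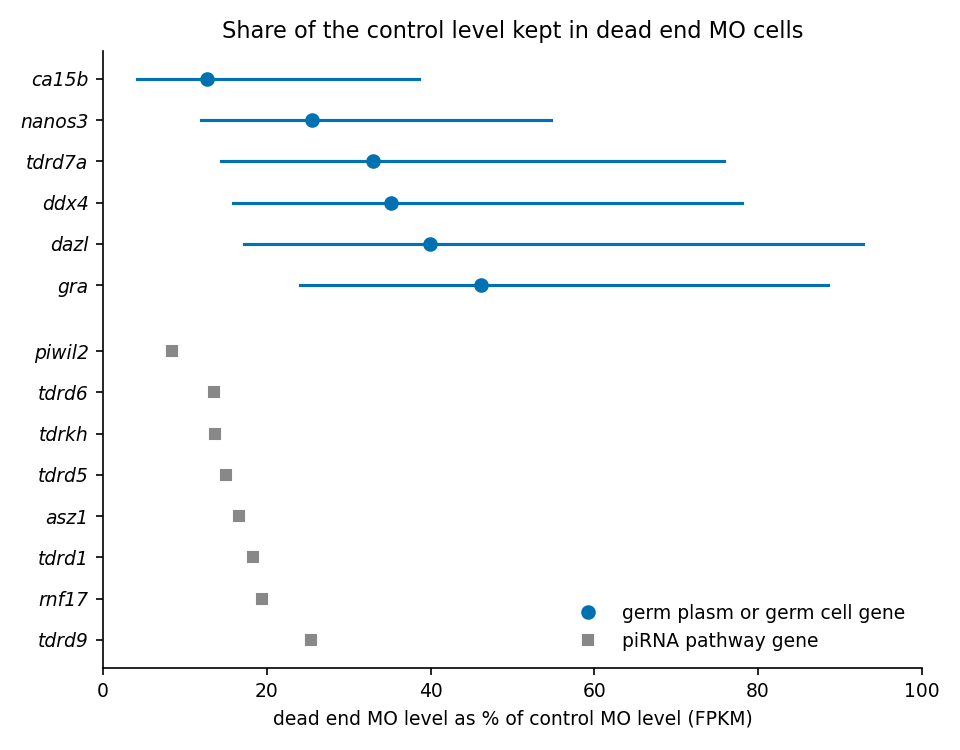
The level in dead end MO cells as a percentage of that in control MO cells is drawn for the 6 genes (circles) and for 8 genes of the piRNA pathway (squares). Bars are nominal 95% intervals from the authors' test statistic, taken as the log ratio over its standard error. They do not match the authors' p-values. The 6 genes lie between 12.7% and 46.2% with overlapping bars, and the piRNA pathway genes lie between 8.47% and 25.4%.

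Compared with other lower genes above 0 FPKM in both groups, the 6 genes differed in level more than in the share kept. Their median share was 34.1%, beside 32.5% for the 712 lower genes with both values above 0 (median log2 ratios of -1.55 and -1.62). The remaining 156 lower genes were at 0 in dead end MO cells and are left out of that median and of the places by share kept. With them the median share of lower genes would be smaller. No lower gene in the table kept more than 56.0%, since smaller falls did not pass the authors' test. Ordered from the largest share kept to the smallest among those 712 genes, gra stood at place 101, dazl at 225, ddx4 at 301, tdrd7a at 346, nanos3 at 465 and ca15b at 671. By level in control MO cells, ca15b and nanos3 took places 1 and 2 among the 2477 genes of the table, and tdrd7a and ddx4 places 8 and 9. In dead end MO cells their places were 88 for ca15b, 56 for nanos3, 151 for tdrd7a and 148 for ddx4. Genes that did not pass the authors' test are missing, so these are no places among all transcripts of the cells. The drop in place of these 4 genes is partly built in, since 65.0% of the genes in the table are higher in dead end MO cells. Among the 868 lower genes, these 4 genes had the 4 highest levels in dead end MO cells and likewise in control MO cells. The genes gra and dazl stood further down by level, at places 404 and 712 of the genes in the table in dead end MO cells and 93 and 131 in control MO cells. The 6 genes made up 18.9% of the summed FPKM of lower genes in dead end MO cells and 27.2% in control MO cells. Besides the 6, only 14 lower genes with a value above 0 in both groups had a control level at or above that of dazl. Their median share kept was 37.0%, with a range of 8.09% to 54.4%. By control level dazl stood at place 21 among all 868 lower genes, so a gene at 0 in dead end MO cells lay above it too. Such a gene is left out of that count, median and range.

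Genes with similar levels in both groups were looked for in the plane of the log2 FPKM values of dead end MO and control MO cells, which rests on only 2 values per gene. Among the 6 themselves, ddx4 and tdrd7a lay 0.07 log2 units apart and nanos3 and ca15b 0.76. The genes named next were sought outside the 6, and only among genes with a symbol that is no clone or locus name. Genes without such a symbol may lie closer. The nearest genes to dazl were tktb, a transketolase gene with 57.2 FPKM in dead end MO cells and 140 FPKM in control MO cells, and surf2 (57.8 FPKM in dead end MO cells and 138 FPKM in control MO cells), at distances of 0.09 and 0.10 log2 units. For gra they were the syndecan gene sdc4 (115 FPKM in dead end MO cells and 266 FPKM in control MO cells, distance 0.21) and the chemokine receptor gene cxcr4b (80.3 FPKM in dead end MO cells and 214 FPKM in control MO cells, distance 0.44), the receptor that guides migrating germ cells. The cathepsin gene ctsla (269 FPKM in dead end MO cells and 538 FPKM in control MO cells) was the nearest gene outside the 6 to ddx4 and to tdrd7a, at 0.79 and 0.83, and the second nearest to both, h2afvb, was higher in dead end MO cells and lay at 1.70 and 1.76. For nanos3 and ca15b no named gene outside the 6 lay closer than 2.27 and 2.91 log2 units, and the nearest ones (rps9 and tpt1 for nanos3, ppiaa and gnb2l1 for ca15b) were all higher in dead end MO cells in the authors' deposited table.

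**Figure D3:**
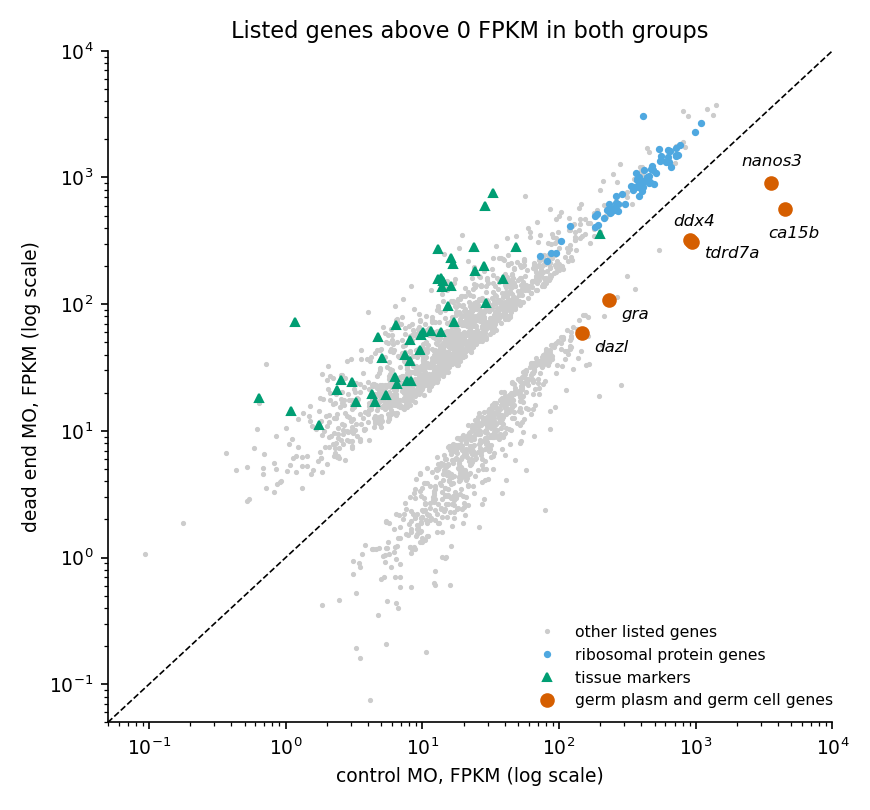
The level in dead end MO cells is plotted against that in control MO cells (FPKM, both axes log scale) for the genes above 0 in both groups, with the dashed line at equal levels. The 6 genes (orange) lie below the line, and ca15b and nanos3 stand alone at its lower right with 568 and 906 FPKM in dead end MO cells, while the tissue markers (green) and the 70 ribosomal protein genes (blue) lie above it.

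Other listed genes of germ plasm and germ cells changed in both directions. Whether the genes of this list are expressed only in germ cells was not tested. A rise among them is therefore not shown to be one of germ cell RNA. Besides the 6, a list of 20 further such genes had 6 in the authors' deposited table, 3 lower and 3 higher at its q, where 35.0% of all genes of the table are lower. The lower ones were piwil2, tdrd6 and cxcr4b, and of these piwil2 and tdrd6 are counted again with the piRNA pathway below. The higher ones were ybx1, which encodes a Y-box protein that binds RNA (1590 FPKM in dead end MO cells and 455 FPKM in control MO cells), igf2bp3, which encodes an RNA-binding protein of maternal messages (112 FPKM in dead end MO cells and 27.4 FPKM in control MO cells), and hook2, which encodes a microtubule adaptor (44.4 FPKM in dead end MO cells and 4.96 FPKM in control MO cells). The germ plasm organiser gene buc, the Piwi gene piwil1 and dnd1, the gene that the morpholino aims at, were on that list. They were not among the genes found under these names, and no values are given for them here.

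The piRNA pathway, in which small RNAs guide Piwi proteins against transposons, gives the nearest comparison within the germ line. Of 17 listed genes of the pathway, the authors' deposited table held 8, all of them lower, where 35.0% of all genes of the table are lower. The median share kept by the 8 was 15.8%. Of the 6 germ plasm and core germ cell genes, 5 kept a larger share than any of these 8 genes, and ca15b was the exception. For nanos3 this was close to a tie, at 25.6% beside 25.4% for the piRNA pathway gene tdrd9. All 6 had higher control levels than any of the 8, and the lowest of the 6, dazl, was at 3.85 times the highest of the 8, piwil2 (3.25 FPKM in dead end MO cells and 38.3 FPKM in control MO cells). The piRNA genes thus had lower levels as well as mostly lower shares, and neither difference was tested. These shares cover only genes that passed the authors' test, which smaller falls at such low levels may not pass. They do not describe the listed genes of the pathway that are absent from the table.

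In control MO cells, tdrd7a was the most abundant of the listed Tudor domain genes found in the table. Among genes with names of the DEAD-box series (ddx and a digit), ddx4 was the most abundant there. DEAD-box helicases under other names were not looked for. For the lower genes counted here, the share over all genes of the table is 35.0%. Of 15 listed genes of the Tudor domain family, 8 were in the authors' deposited table, 7 of them lower. The exception was snd1, a broadly expressed nuclease gene, which was higher as deposited (65.9 FPKM in dead end MO cells and 31.3 FPKM in control MO cells) and lower when the values were scaled to ribosomal protein genes. The lower genes of the family other than tdrd7a were all counted above with the piRNA pathway, so these counts are not separate. The level of tdrd7a was 4.71 times that of snd1, the next of these 8 Tudor domain genes, in dead end MO cells and 30.1 times in control MO cells. The table held 5 genes with names of the DEAD-box series, of which ddx4, ddx28 and ddx43 were lower. The other two were ddx39ab, a gene of mRNA export, and ddx19, and ddx19 was lower under both rescalings described below. The level of ddx4 was 0.677 times that of ddx39ab in dead end MO cells (318 and 470.1 FPKM) and 9.57 times in control MO cells (904 and 94.5 FPKM). Of 18 carbonic anhydrase genes looked for, ca15b and ca4b were present, and ca4b was listed at 0 in dead end MO cells and at 1.36 FPKM in control MO cells.

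A list of 27 names was drawn up for partners of Nanos and Dazl in RNA control (Pumilio family proteins, deadenylases, their cofactors and poly(A)-binding proteins). That each of them acts with Nanos or Dazl was not tested. Of these names, 9 were in the authors' deposited table, 3 lower and 6 higher. The split is close to the 35.0% lower and 65.0% higher of all genes of that table. The CCR4-NOT ubiquitin ligase gene cnot4b kept 28.2% of its control level (14.3 FPKM in dead end MO cells and 50.7 FPKM in control MO cells), and the antiproliferative adaptor gene tob1b and the deadenylase gene pan2 kept 40.5% and 48.3%. The paralog tob1a rose 5.68-fold (222.9 FPKM in dead end MO cells and 39.2 FPKM in control MO cells, q = 0.00107 in the authors' deposited table), and the CCR4-type deadenylase gene cnot6a rose 3.02-fold and pan3 2.93-fold. The remaining 3, pum3, cnot8 and rqcd1, were 2.13-fold, 2.34-fold and 1.97-fold higher as deposited and lower once the values were scaled to ribosomal protein genes, rqcd1 also with equal sums of FPKM.

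The 6 genes had 58.9 to 906 FPKM in dead end MO cells and 148 to 4484 FPKM in control MO cells, all above the medians of the genes in the table (26.8 FPKM in dead end MO cells and 16.8 FPKM in control MO cells), and markers of somatic tissues changed in the other direction. The 8 piRNA pathway genes were at 1.75 to 3.48 FPKM in dead end MO cells and at 6.90 to 38.3 FPKM in control MO cells. Of 86 listed markers of muscle and paraxial mesoderm, nervous system, epidermis, endoderm, blood and endothelium, and notochord, 46 were in the authors' deposited table. All 46 were higher in dead end MO cells as deposited, where 65.0% of all genes of the table are higher. One of them, the keratin gene krt8, was lower under both rescalings. Their summed level was 5468 FPKM in dead end MO cells and 756 FPKM in control MO cells. The 6 germ plasm and core germ cell genes together were at 0.415 times that sum in dead end MO cells and at 13.6 times that sum in control MO cells. Listed markers that did not pass the authors' test are missing from both sums, at unknown levels. These ratios are therefore no measure of germ cells against other cells. The paraxial mesoderm markers had the largest sum in dead end MO cells, at 2963 FPKM, against 216 FPKM in control MO cells, with msgn1, a regulator of presomitic mesoderm, at 751 FPKM in dead end MO cells and 32.8 FPKM in control MO cells. Neural markers summed to 1269 FPKM in dead end MO cells and 202 FPKM in control MO cells. The smallest sum was that of blood and endothelium, with 52.2 FPKM in dead end MO cells and 6.71 FPKM in control MO cells. Of the 46 markers, sox32, an endoderm regulator, was listed at 0 in control MO cells, and no marker was at 0 in dead end MO cells. The part of other cells in the falls of the 6 genes was not tested.

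**Figure D4:**
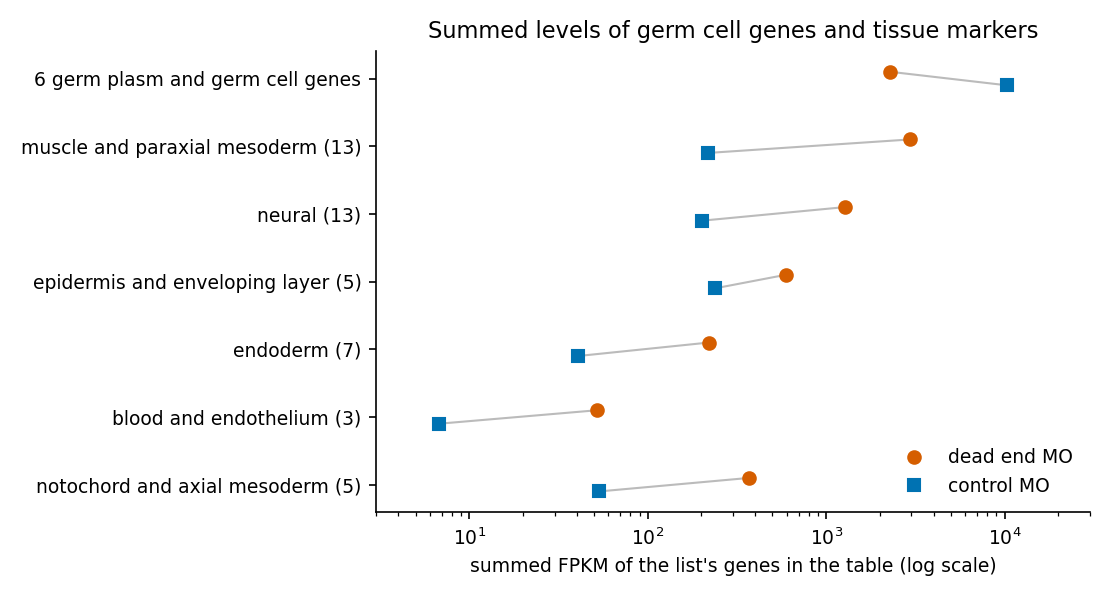
Summed FPKM (log scale) in dead end MO cells (orange circles, upper) and control MO cells (blue squares, lower) is shown for the 6 germ plasm and germ cell genes and for 6 lists of tissue markers, with the number of genes found in parentheses. The germ cell sum is lower in dead end MO cells (2269 against 10252 FPKM), and all 6 marker sums are higher there, as for paraxial mesoderm (2963 against 216 FPKM).

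FPKM values are relative to each library, and the summed FPKM of the 2477 genes was 236837 in dead end MO cells and 117114 in control MO cells, 2.02 times as high. The 6 genes made up 0.958% of that sum in dead end MO cells and 8.75% in control MO cells. The 70 ribosomal protein genes of the table were higher by a median of 2.35-fold. If either were taken as the constant, the shares kept by the 6 genes would be smaller, between 6.26% and 22.8% with equal sums and between 5.39% and 19.7% with ribosomal protein genes held level, and their order would stay as it is. The 6 genes would be lower under either, which is bound to hold since both scale factors reduce the dead end MO values. Both references cover only genes that passed the authors' test as changed, so neither is known to be constant. The split of all 2477 genes would be 963 lower (38.9%) and 1514 higher (61.1%) with equal sums, and 1238 lower (50.0%) and 1239 higher (50.0%) with ribosomal protein genes held level, beside 868 lower and 1609 higher as deposited.

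The authors' own term analysis of the lower genes, in a further deposited table, named 21 terms. It covers lower genes of the same comparison, so it is no separate support. The smallest corrected p belonged to metabolic process (1.57-fold over the expected number of genes, corrected p = 6.29e-08 in the authors' deposited table). Other metabolic and catabolic terms were also named. The rest included reproduction and also cellular response to stress and cellular response to DNA damage stimulus. The 2 response terms were 3.07-fold and 3.35-fold over the expected number of genes. Developmental processes in reproduction were 7.24-fold over the expected number of genes (corrected p = 0.00182), and oogenesis was 10.3-fold over it (corrected p = 0.0219), both in the authors' deposited table. The table does not name the genes behind a term.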

How the data were processed

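Messenger RNA of sorted germ cells was sequenced from directional libraries, per the labels' protocols. Per the submitters' processing notes, the tools were STAR 2.5.2b, cutadapt 1.10, Cuffdiff and Cufflinks 2.2.1, and both Zv9 and GRCz10 are named as builds, with no role given. The authors deposited 1 FPKM value per gene and group, per the file headers, with a log2 fold change, a test statistic (a score), a p-value and a q-value. Positions are copied from that table, which states no build, and were taken as GRCz10. The authors also deposited, per the file headers, PANTHER results for lower genes, with a fold enrichment (a ratio) and a Bonferroni-corrected p-value.

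The share kept was computed as dead end MO over control MO FPKM with pandas 2.3.3 in Python 3.11.15. The deposited log2 values matched these ratios within 1.34e-05. Calls are the authors' q under 0.05. No own test was run, because no file gives values per library. Whether libraries came from separate clutches is not in the labels, so the spread behind the authors' test may be technical. Alternatives were q under 0.01, a minimum of 1 FPKM, FPKM + 1, and rescaling to equal sums of FPKM or to ribosomal protein genes. The computation was tested on simulated data. The members and lists were chosen with earlier results of these data known. Some lists carry a gene under an older and a newer name, as with rqcd1 and cnot9, so list sizes count names. Named were the 6 genes, genes of the fixed lists, and of the tissue markers the most abundant or most changed. Also named were the 2 genes nearest to each of the 6, among genes with a symbol that is no clone or locus name. The gene sox32 was named after its values were seen. The handling of fragments shared by paralogs is not stated in the labels.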

Additional observations from a re-analysis of the deposited data

How the results depend on the processing

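All 6 genes stayed lower in dead end MO cells under each alternative tried, but none of the alternatives could have reversed a fall. The thresholds leave the values as they are, FPKM + 1 keeps their order, and both scale factors reduce the dead end MO values. With FPKM + 1 each share kept moved by less than the standard error taken from the authors' statistic. At q under 0.01, 5 of the 6 genes were still called, and dazl (39.9% kept) was not. Of all 2477 genes in the authors' deposited table, 449 (18.1%) were lower at that threshold. Equal sums of FPKM gave shares kept of 6.26% for ca15b, 12.6% for nanos3, 16.3% for tdrd7a, 17.4% for ddx4, 19.7% for dazl and 22.8% for gra. Scaling to ribosomal protein genes gave 5.39% for ca15b, 10.9% for nanos3, 14.1% for tdrd7a, 15.0% for ddx4, 17.0% for dazl and 19.7% for gra. The median log2 ratio of the 6 genes was -2.57 with equal sums and -2.78 with ribosomal protein genes held level, beside -1.55 as deposited. These shifts follow from the scale factors, which are the same for every gene. No paired analysis was possible because the columns give 1 value per group and carry no replicate numbers, and leaving out a library was not run for the same reason. Genes outside the authors' q, and so falls too small to pass it, could not be compared here.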
